A study of Homo sapiens with 4 samples.

Results

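The Ikaros, BCL11 and ETS factors described here are 10 genes for lymphoid transcription factors, taken by symbol from a table of 26733 genes measured in Jurkat cells. They are IKZF1, IKZF2, IKZF3, IKZF4 and IKZF5 of the Ikaros family, BCL11A and BCL11B, and ETS1, ERG and FLI1 of the ETS family, and all 10 passed the filter on low counts. Jurkat is an established line grown from a human T-cell acute lymphoblastic leukaemia. One group of 2 libraries came from cells given GNE987 at a labelled dose of 25 nmol, with no volume stated, for 24 h, and the other group of 2 came from untreated cells. GNE987 is a bifunctional degrader that brings BET bromodomain proteins to the ubiquitin ligase VHL. The labels name no vehicle and do not say that replicates were separate cultures, so the p-values below measure only the spread between these libraries, which may be technical.

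Ikaros proteins bind DNA through one set of zinc fingers and pair with each other through another set at the end of the protein, and they recruit chromatin-modifying corepressors such as NuRD. BCL11B is a zinc finger factor needed for the commitment of thymocytes to the T-cell fate, and its paralog BCL11A acts in B-cell progenitors and in the silencing of fetal globin. ETS factors share a winged helix domain that binds a GGAA core. ETS1 is a prominent member in lymphocytes, while ERG and FLI1 act in blood stem cells, megakaryocytes and endothelium.

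The sequences upstream of 3 members are shown because these genes hold the largest fall, the only rise and the smallest called fall. Each is the run of 250 bases before a RefSeq start (GRCh38.p14), printed 5′ to 3′ on the strand of the gene, with GGAA or its reverse complement TTCC in capitals. None of these 3 windows overlaps an exon of GENCODE release 29, and each lies wholly outside the annotated gene. The window of IKZF2 is at chr2:213152457-213152706 on the minus strand, that of IKZF4 at chr12:56007254-56007503 on the plus strand and that of BCL11B at chr14:99272198-99272447 on the minus strand.
IKZF2: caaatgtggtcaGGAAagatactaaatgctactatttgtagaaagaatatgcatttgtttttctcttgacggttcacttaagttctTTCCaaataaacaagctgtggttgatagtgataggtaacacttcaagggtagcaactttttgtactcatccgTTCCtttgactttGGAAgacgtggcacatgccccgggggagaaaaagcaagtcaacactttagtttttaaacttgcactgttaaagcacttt
IKZF4: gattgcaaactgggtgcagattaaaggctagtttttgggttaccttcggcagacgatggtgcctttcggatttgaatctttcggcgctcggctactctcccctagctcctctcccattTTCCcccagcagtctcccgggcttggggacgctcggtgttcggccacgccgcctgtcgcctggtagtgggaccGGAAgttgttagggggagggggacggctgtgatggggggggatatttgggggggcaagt
BCL11B: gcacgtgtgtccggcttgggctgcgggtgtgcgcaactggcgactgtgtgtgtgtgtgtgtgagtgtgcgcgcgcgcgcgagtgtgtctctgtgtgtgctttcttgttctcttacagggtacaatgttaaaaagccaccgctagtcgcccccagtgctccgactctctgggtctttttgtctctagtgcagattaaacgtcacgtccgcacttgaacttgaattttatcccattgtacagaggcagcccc
The printed IKZF2 window held 4 matches to GGAA over both strands, that of IKZF4 2 and that of BCL11B 0. Windows at other starts, inside the annotated genes, held 6 for IKZF2 and 5 each for IKZF4, so the printed counts do not describe a gene as a whole. Over 35116 RefSeq windows of the same length the median was 3 matches, 92.7% held at least 1 and 7.26% had none. Windows of 1 chromosome, which holds no member, were left out of this and the following shares of all windows. The longer ETS letters CCGGAA, searched on both strands, contain GGAA and so count in both searches. They were found 1 time in the printed IKZF4 window and in no other of 20 windows of 7 members, against 14.5% of all windows. The Ikaros letters TGGGAA, which also contain GGAA, were present in 3 of those 20 windows and in 20.8% of all windows. These are matches of letters, not measured sites. ETS1, FLI1 and IKZF3 had no window among the sequences used.

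Paralogs resemble each other, so the longest identical coding run of each pair shows how far reads could be confused between them. The longest run within the BCL11 pair and within the Ikaros family are printed here in lower case. Positions count from the first base of the start codon in a GENCODE release 29 coding transcript of each gene.
BCL11A bases 1261 to 1289 and BCL11B bases 1411 to 1439: aagcgccacatgaagacgcacatgcacaa
IKZF1 bases 1438 to 1463 and IKZF3 bases 1408 to 1433: cacatgggctgccacggcttccgtga
These runs were 29 and 26 bases long, and the longest among the ETS members, between ERG and FLI1, was 17 bases. No member shared a stretch of 50 bases with another member. Up to 2.88% of such stretches, in FLI1, were also found in a transcript of some other gene.

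Each library held 16041022 to 18938465 counts, and 3 counts in a library, taken as the floor for a gene without reads, equalled 0.158 to 0.187 CPM (a count scaled by its library's total), which covers counting error only. Untreated replicate 2 stood apart from untreated replicate 1: chi-square over degrees of freedom, from their counts, was 34.0, and 4.55 in the GNE987 pair. For 7 of the 8 members called below, untreated replicate 2 was displaced from untreated replicate 1 toward the GNE987 libraries. The displacement was 18.0% to 35.5% of the distance to the mean of the GNE987 libraries. Its share over all genes was not computed, so it cannot be called particular to these factors. The cells carried T-cell markers: CD3E, a chain of the T-cell receptor complex, was at 507 and 639 CPM (here and below after TMM scaling, which corrects for RNA composition) in the untreated libraries, and CD3D, another chain, at 468 and 436 CPM. In bulk RNA a lower level in every cell and a loss of some of the cells that express a gene cannot be told apart.

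Of the 10 factors 7 fell with GNE987 and 1 rose. IKZF2, IKZF1, BCL11A, ERG, IKZF3, ETS1 and BCL11B fell, in this order of size, IKZF4 rose, and FLI1 and IKZF5 did not pass the threshold of an adjusted p of 0.05 (edgeR quasi-likelihood test, Benjamini-Hochberg over the 15910 genes tested). The background was high, since 37.2% of all tested genes were called lower and 34.4% higher, or 71.6% in either direction. A fall of at least 2-fold was called for 6 of the 10 and for 27.6% of all genes. The median log2 fold change was -1.44 over the 10 factors and -0.03 over all genes tested. All of these changes are relative to the other RNA of a library. CPM does not measure RNA per cell, so a fall, a rise or the lack of a call need not hold per cell. The TMM factors differed by group, with 0.896 and 0.862 for GNE987 replicates 1 and 2 against 1.18 and 1.10 for the untreated ones. Scaling by library size alone moved the median of all genes by -0.37.

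In 9 of the 10 the groups of libraries did not overlap, as in 91.1% of all genes tested. These were 8 with lower and 1 with higher treated libraries, against 46.6% and 44.6% of all genes. Without untreated replicate 2 the counts were again 7 lower and 1 higher, against 40.1% and 41.1% of all genes, and likewise 7 and 1 without untreated replicate 1, against 38.9% and 36.6%. Without GNE987 replicate 1 there were 5 lower and 0 higher, against 25.2% and 13.0% of all genes. Without GNE987 replicate 2 there were 6 lower and 0 higher, against 25.6% and 13.5%. The smallest two-sided p that an exact permutation of 2 against 2 libraries can give is 0.333, so only the fit across all genes was used for tests.

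**Figure D1:**
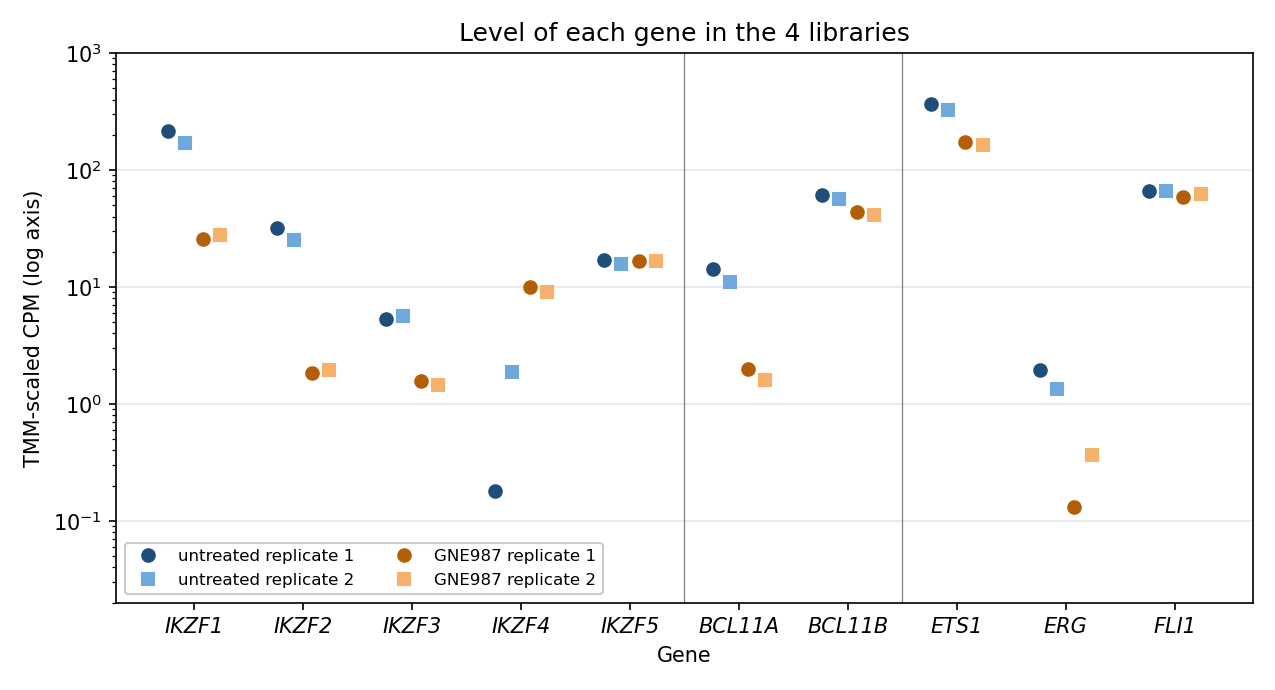
TMM-scaled CPM of the 10 genes (log axis) in the 4 libraries, each point being 1 library. The GNE987 libraries lie below both untreated libraries for IKZF1, IKZF2, IKZF3, BCL11A, BCL11B, ETS1, ERG and FLI1 and above them for IKZF4, where untreated replicate 1 (0.180 CPM) is far below untreated replicate 2 (1.88 CPM).

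IKZF1 encodes Ikaros, the founding member of the family and a tumour suppressor in lymphoid leukaemia. It lies on chromosome 7 from 50304068 to 50405101 (GRCh38, plus strand). Its level was 214 and 169 CPM in untreated replicates 1 and 2 and 25.7 and 27.5 CPM in GNE987 replicates 1 and 2. Both GNE987 libraries were far below both untreated ones, and the fall, to 13.9% of the untreated mean, exceeded the gap between replicates. The log2 fold change was -2.85 ± 0.17 (SE), with an adjusted p of 0.000304. An antisense gene, AC124014.1, overlaps 110 exonic bases of IKZF1 and had 5 to 9 counts per library, against 380 to 4770 for IKZF1.

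IKZF2 encodes Helios, which is found in regulatory T cells and early thymocytes. Its level was 32.2 and 25.1 CPM in the untreated libraries and 1.84 and 1.96 CPM in the treated ones. This was the largest fall among the 10, to 6.62% of the untreated mean, with no overlap of the groups. The log2 fold change of IKZF2 was -3.91 ± 0.22, with an adjusted p of 0.000295, and 2.01% of all tested genes had a lower one. IKZF2 spans chromosome 2 from 212999691 to 213152427 on the minus strand.

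IKZF3 encodes Aiolos, the member best known from B cells and plasma cells, and lies on chromosome 17 from 39757715 to 39864188 on the minus strand. It was at 5.30 and 5.68 CPM in untreated cells and at 1.58 and 1.45 CPM with GNE987. The groups did not overlap, and the log2 fold change was -1.85 ± 0.28 (adjusted p = 0.00333). IKZF3 was the 1 called member for which untreated replicate 2 was displaced away from the treated libraries (-10.1% on the scale used above).

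IKZF4, which encodes Eos, a corepressor partner of FOXP3 in regulatory T cells, was the only member that rose. It lies on chromosome 12 from 56007659 to 56038435 on the plus strand. It had 4 and 38 counts in untreated replicates 1 and 2 and 153 and 126 in GNE987 replicates 1 and 2, or 0.180, 1.88, 10.04 and 9.13 CPM. The treated libraries were close together and above both controls, which stood far apart.

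The log2 fold change of IKZF4 was 3.24 ± 0.82 (adjusted p = 0.0166), and it was 5.74 without untreated replicate 2 and 2.35 without untreated replicate 1. Summed reads, scaled by library, gave a ratio of 9.73, with an exact 95% interval of 7.01 to 13.8 for counting error only. IKZF4 did not pass with GNE987 replicate 1 left out, at 3.15 (adjusted p = 0.102), nor with GNE987 replicate 2 left out, at 3.29 (adjusted p = 0.0932), so its size was close to that from all libraries. Both antisense genes that overlap IKZF4, AC034102.3 and AC034102.8, touch none of its exons and had at most 5 counts in a library.

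The summed level of myeloid markers had the same order of the groups and of the untreated libraries as IKZF4. Over 7 of 8 listed genes it was 0.584 and 29.8 CPM in untreated replicates 1 and 2 and 142 and 147 CPM with GNE987. Of the 5 tested 3 rose. The number called higher was 0 with either GNE987 library left out, 5 with either untreated library left out and 1 with DESeq2. MPO, the myeloperoxidase of granules, was at 0.0898 and 15.5 CPM untreated and at 72.6 and 77.3 CPM treated. MPO was not called (log2 fold change 3.28 ± 1.33) and so is not among the 3 that rose. ELANE, the neutrophil elastase, was at 0 in both untreated libraries, and CD33, a myeloid surface receptor, was at 0 in both treated ones. The sums of the housekeeping, other ETS, B-cell and megakaryocyte lists described below had the same order, so it is not particular to myeloid markers. Housekeeping genes, for example, summed to 18010 and 23071 CPM in untreated replicates 1 and 2 and to 38599 and 43380 CPM with GNE987. The part of the myeloid markers in the result for IKZF4 was not tested.

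IKZF5 encodes Pegasus, the most distant member of the family, and lies on chromosome 10 from 122990806 to 123008817 on the minus strand. It was at 17.0 and 15.7 CPM without and 16.7 and 16.8 CPM with GNE987, and the groups overlapped. The log2 fold change was 0.04 ± 0.14, with a 95% interval of -0.31 to 0.39 (adjusted p = 0.807). PSTK, a protein-coding gene on the other strand, overlaps 81 exonic bases of IKZF5 and had 108 and 107 counts in untreated and 54 and 50 in treated libraries. The library kit named in the labels does not mark the strand, so reads in such overlaps cannot be told apart.

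With IKZF1 and IKZF2 lower and IKZF4 higher, the makeup of the family's RNA differed between the groups. It is given in FPKM, which the authors scaled to gene length. The shares were the same, to the digits given, with CPM over the length of all annotated exons of a gene. That length is 25422 bases for BCL11A and 7855 bases for BCL11B. Shares and orders between genes in FPKM therefore depend on the annotation. IKZF1 made up 74.7% and 71.8% of the summed FPKM of the 5 Ikaros genes in the untreated libraries and 31.2% and 33.3% in the treated ones. IKZF5, whose own level did not pass the test, made up 13.1% and 14.7% untreated and 45.092% and 44.996% treated, which put it above IKZF1. In CPM, which is not scaled to length, IKZF1 stayed above IKZF5 in the treated libraries, at 25.7 and 27.5 against 16.7 and 16.8.

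IKZF4 made up 0.101% and 1.28% of the family untreated and 19.6% and 17.7% treated. IKZF2 made up 10.03% and 9.54% untreated and 2.00% and 2.11% treated, and IKZF3 was between 1.91% and 2.64% in all 4 libraries. The summed level of the family was 26.3 and 21.0 FPKM untreated and 7.42 and 7.50 FPKM treated. These shares are a description, with no test.

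**Figure D2:**
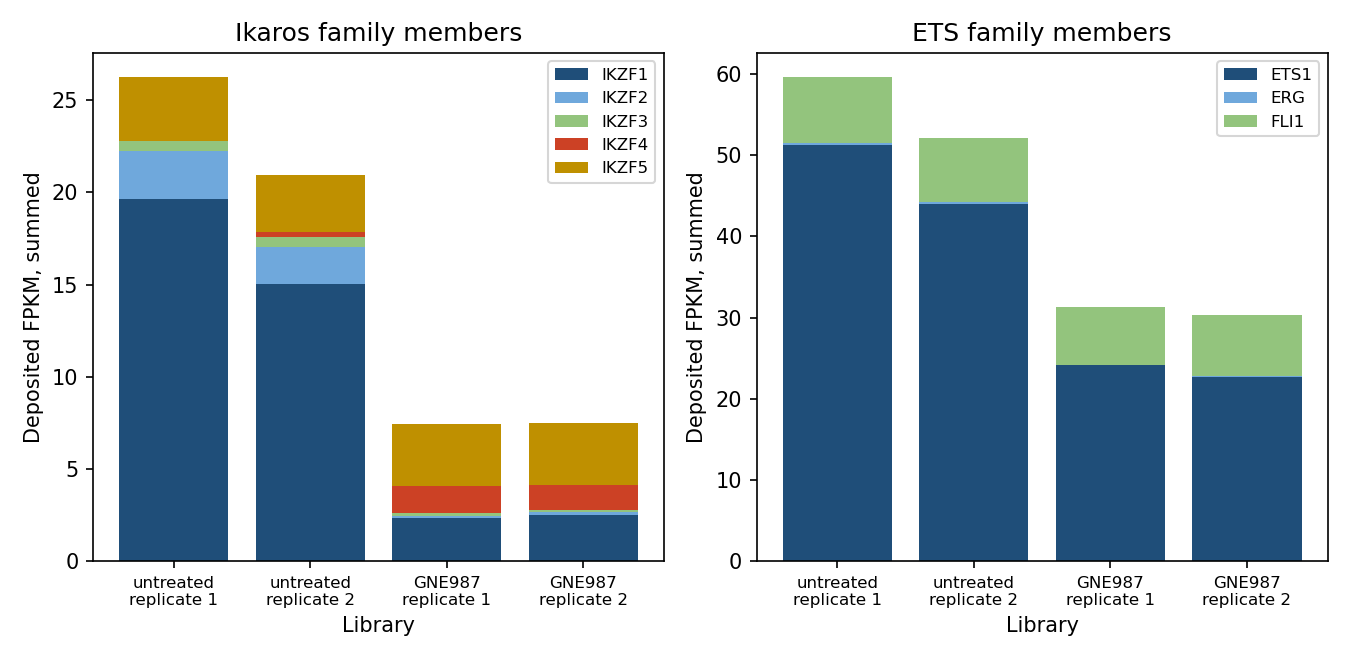
Stacked deposited FPKM of the members of a family in each of the 4 libraries, each bar being 1 library and each colour 1 gene. In the Ikaros family the bar is 26.3 and 21.0 FPKM in untreated and 7.42 and 7.50 FPKM in treated libraries and its largest portion passes from IKZF1 to IKZF5, while ETS1 remains the largest portion of the ETS bars.

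The BCL11 paralogs both fell. BCL11A, on chromosome 2 from 60450520 to 60555154, was at 14.2 and 10.9 CPM in untreated cells and at 1.97 and 1.59 CPM with GNE987. The groups were well apart, and the log2 fold change of BCL11A was -2.81 ± 0.27 with an adjusted p of 0.000821. BCL11B, on chromosome 14 from 99169287 to 99271524, was at 61.1 and 56.6 CPM without and at 44.0 and 41.5 CPM with GNE987. The groups of BCL11B did not overlap, but the fall was small, to 72.5% of the untreated mean, with a log2 fold change of -0.46 ± 0.11 and an adjusted p of 0.0154.

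The call of BCL11B was lost with upper-quartile scaling, at a log2 fold change of -0.27 (adjusted p = 0.0902). It was also lost without GNE987 replicate 1, at -0.51 (adjusted p = 0.106), and without GNE987 replicate 2, at -0.42 (adjusted p = 0.145), where the size was close to that from all libraries. The 95% interval of the log2 fold change was -3.49 to -2.13 for BCL11A and -0.75 to -0.17 for BCL11B, and the difference between the genes was not tested. BCL11B was the more abundant paralog in every library, with 93.3% and 94.4% of their summed FPKM in untreated cells and 98.6% and 98.8% in treated cells.

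ETS1 was the most abundant of the 10 in every library on the FPKM scale. It was at 366 and 323 CPM without GNE987 and at 175 and 164 CPM with it. Both treated libraries were below both untreated ones, and the level fell to 49.2% of the untreated mean, a log2 fold change of -1.02 ± 0.13 (adjusted p = 0.00211). Its share of the summed FPKM of the 10 factors was 54.4% and 54.7% in untreated cells and 54.4% and 52.7% in treated cells.

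ERG, on chromosome 21 from 38380027 to 38661780, was scarce, with 43 and 27 counts in the untreated libraries and 2 and 5 in the treated ones. Both treated values were below the untreated ones and near the floor of 3 counts. The ratio of summed reads, scaled by library, was 6.83, with an exact 95% interval of 3.15 to 17.6 for counting error only. The fitted log2 fold change of ERG was -2.72 ± 0.60 (adjusted p = 0.0107), and without GNE987 replicate 1 it was -2.15 and did not pass (adjusted p = 0.0780).

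FLI1, the closest relative of ERG, was at 66.0 and 66.1 CPM untreated and at 59.2 and 62.2 CPM with GNE987. Both treated values were slightly lower, and the log2 fold change was -0.12 ± 0.11, with a 95% interval of -0.39 to 0.15 (adjusted p = 0.337). With library size alone FLI1 was at -0.50 and passed (adjusted p = 0.0138), a scaling that moved the median of all genes by -0.37. SENCR, an antisense RNA that shares 162 exonic bases with FLI1, had 19 and 5 counts in untreated and 0 and 1 in treated libraries.

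ETS1 and FLI1 are neighbours on chromosome 11, from 128458761 to 128587558 and from 128686535 to 128813267, with 99.0 kb between them. The 95% interval of ETS1 was -1.36 to -0.69, apart from that of FLI1, and the difference between them was not tested. The share of FLI1 in the summed FPKM of the 3 ETS members was 13.6% and 15.1% untreated and 22.8% and 24.9% treated.

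**Figure D3:**
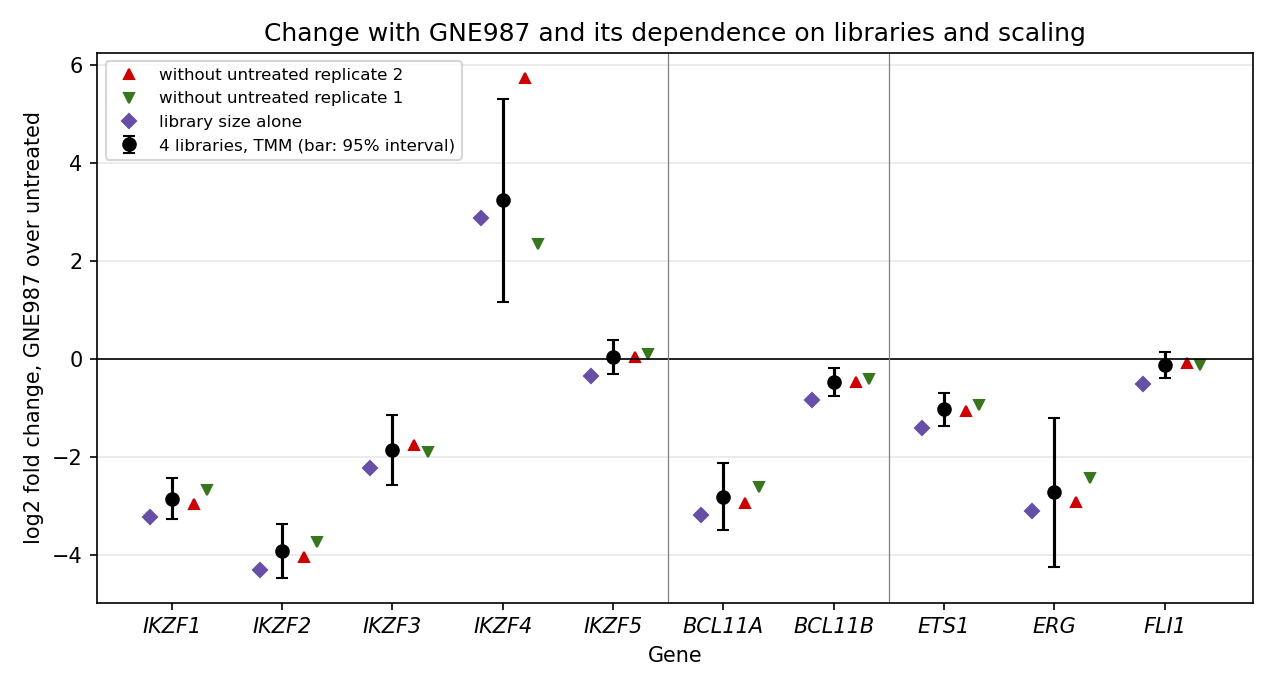
Log2 fold change of each gene, GNE987 over untreated, with black points for the fit to 4 libraries with TMM scaling, bars for its 95% interval and coloured points for the fits with 1 untreated library left out or with library size alone. IKZF4 has the widest interval, 1.17 to 5.30, and IKZF5 and FLI1 are the genes whose interval includes 0.

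In untreated cells the order of levels in FPKM began with ETS1 (47.6 ± 5.10, SD, n = 2), IKZF1 (17.3 ± 3.23), FLI1 (7.98 ± 0.152), BCL11B (7.41 ± 0.548) and IKZF5 (3.27 ± 0.251). Below these came IKZF2 (2.32 ± 0.448), IKZF3 (0.541 ± 0.0158), BCL11A (0.488 ± 0.0996), ERG (0.213 ± 0.0592) and IKZF4 (0.147 ± 0.171). The libraries of IKZF3 and BCL11A overlapped, as did those of ERG and IKZF4, and the other neighbours in this order did not. With GNE987 the order was ETS1, FLI1, BCL11B, IKZF5, IKZF1, IKZF4, IKZF2, IKZF3, BCL11A and ERG. IKZF1 was then in the fifth place (2.40 ± 0.126 FPKM) and IKZF4 in the sixth (1.39 ± 0.0900 FPKM), and only IKZF2 and IKZF3 overlapped, at 0.153 ± 0.00717 and 0.149 ± 0.00841 FPKM.

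Corepressors that Ikaros proteins recruit were more often lower than higher. Of 17 tested genes of NuRD and related complexes 9 were called lower and 2 higher. The shares to set beside this and every other list are 37.2% lower and 34.4% higher over all genes tested. Where a library is left out, the shares given above for the 10 factors apply. The median of the 17 genes was -0.47 on the log2 scale, against -0.03 over all genes. SIN3B, a scaffold of histone deacetylase complexes, fell by 2.47 on the log2 scale (SE 0.18, adjusted p = 0.000397), and MTA3, a NuRD subunit, went from 34.9 and 26.7 to 7.35 and 6.45 CPM. MBD3, also of NuRD, was at -1.32 ± 0.13 and CTBP1, a corepressor that Ikaros binds, at -1.16 ± 0.13. The number called higher ranged from 1 to 5 over the alternatives.

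The rest of the ETS family was called in both directions, in an order that depended on the scaling and on the libraries. Of 24 listed genes 17 were tested, and 9 rose and 3 fell, with a median of 0.48. ETV5 rose from 45.7 and 61.2 to 157 and 161 CPM (log2 fold change 1.58 ± 0.17) and ETV3, a repressor, from 18.9 and 28.5 to 87.8 and 81.8 CPM (1.84 ± 0.22). SPDEF, an epithelial member, had 5 reads in the untreated and 47 in the treated libraries, a scaled ratio of 13.8 with an exact 95% interval of 5.50 to 44.3 for counting error only. ETV6, a repressor rearranged in leukaemia, fell from 52.9 and 45.3 to 12.7 and 12.1 CPM (-1.98 ± 0.14). With library size alone 6 were called higher and 7 lower, with a median of 0.11. Without GNE987 replicate 1 there were 3 higher and 3 lower, and without GNE987 replicate 2 there were 4 higher and 3 lower.

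Of 18 tested factors that act beside these in lymphoid cells 10 fell and 3 rose, with a median of -0.83. TCF12, an E protein, fell from 104 and 88.0 CPM to 13.5 and 9.42 CPM, and MYB, a factor of progenitor growth, from 365 and 296 to 42.0 and 39.1 CPM. TCF7, a T-lineage factor, was at -2.15 ± 0.13, and LYL1, a factor of blood progenitors and T-cell leukaemia, at -5.54 ± 0.21. The number called higher was 0 without GNE987 replicate 1 and 1 without GNE987 replicate 2.

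Genes with Ikaros sites known from lymphocyte studies were called in both directions. Of 14 tested 8 fell and 3 rose, with a median of -1.36. DTX1, a NOTCH pathway gene, went from 374 and 311 to 51.4 and 54.4 CPM (-2.69 ± 0.15) and IGLL1, a surrogate light chain gene, from 482 and 420 to 113 and 119 CPM (-1.96 ± 0.14). RAG1, of the recombinase, had 141 reads in the untreated and 4 in the treated libraries, a scaled ratio of 24.1 with an exact 95% interval of 9.20 to 89.6 for counting error only. The number called lower was 5 without GNE987 replicate 1.

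**Figure D4:**
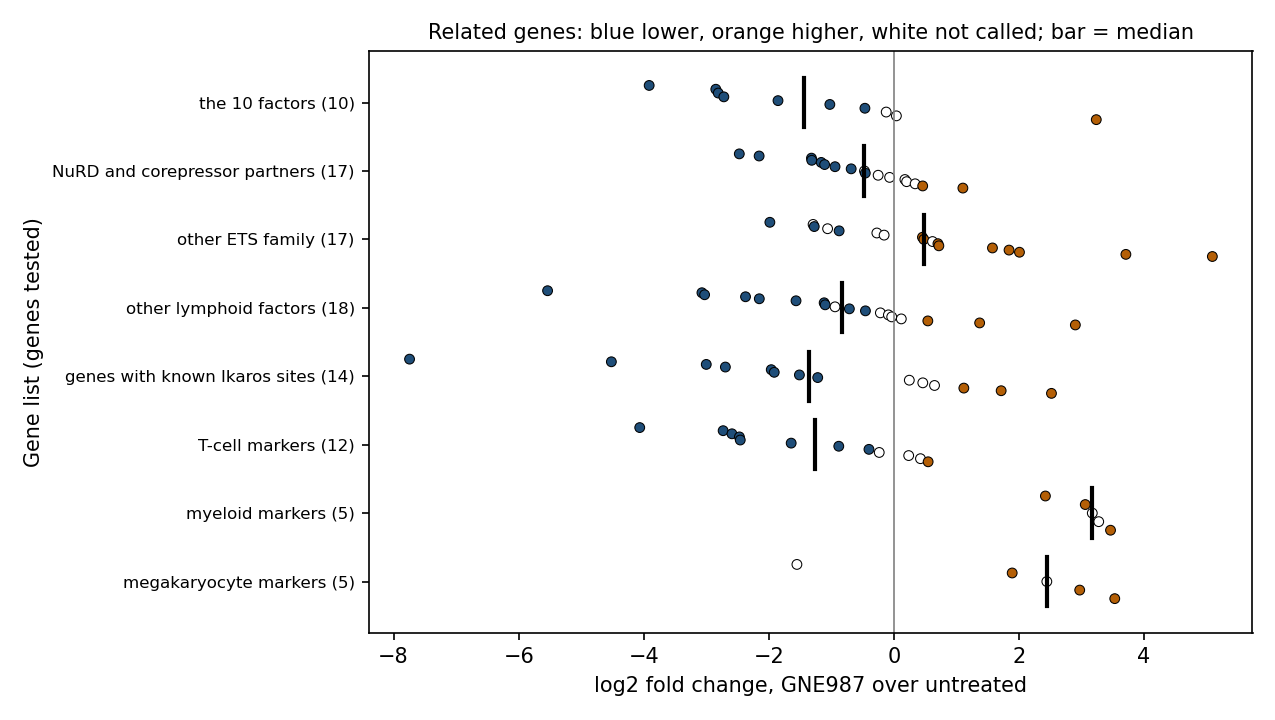
Log2 fold change of every tested gene of the 10 factors and of related lists, 1 point per gene, blue where called lower, orange where called higher and white where not called, with the median as a bar. The medians are -1.44 for the 10 factors, 0.48 for the other ETS genes and -0.83 for the other lymphoid factors.

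Markers of other lineages in which these factors act were mostly scarce. Megakaryocyte markers, a lineage of ERG and FLI1, summed to 1.71 and 4.89 CPM untreated and 19.4 and 18.1 CPM with GNE987 over 5 of 8 listed genes, and 3 of 5 tested rose, but 1 with either GNE987 library left out. ITGA2B, the platelet integrin chain, went from 0.449 and 0.839 to 7.48 and 7.46 CPM, and GP1BA, a platelet receptor, from 0.404 and 1.83 to 9.13 and 8.26 CPM. ITGB3, the partner chain of ITGA2B, was at 0.539 and 1.53 CPM untreated and 0.263 and 0.435 CPM treated and was not called (-1.55 ± 0.74). The part of these markers in the values of ERG and FLI1 was not tested. Endothelial markers had 1 lower of 2 tested, PECAM1 (-1.29 ± 0.16), and 1 higher only without untreated replicate 2 among the libraries left out, and VWF, the endothelial clotting factor, was at most 0.198 CPM in a library.

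Of 2 tested B-cell markers CD79A rose (1.15 ± 0.15) and BLK fell (-2.84 ± 0.23), and PAX5, the defining factor of the lineage, was at most 0.197 CPM in a library. Erythroid markers, a lineage of BCL11A, summed to at most 2.36 CPM in a library, and 0 of 1 tested was called. Natural killer markers had 1 higher and 1 lower of 5 tested, GNLY (2.45 ± 0.44) and PRF1 (-2.91 ± 0.23), with 0 higher without GNE987 replicate 2 and 2 lower with either untreated library left out. T-cell markers were lower in 8 of 12 and higher in 1 (0 with either GNE987 library left out, 2 without untreated replicate 1 and 3 without untreated replicate 2), and their sum was 2770 CPM in both untreated libraries and 2335 and 2451 CPM in the treated ones. The median log2 fold change of the T-cell markers was -1.26. Their sum leans on the most abundant of them, CD3E and TRBC1, which were not called. Of 12 housekeeping genes 8 rose and 1 fell, with a median of 1.00.

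The authors' deposited table listed an adjusted p below 0.05 for 8 of the 10 factors and for 37.3% of all 26733 genes, which include those too low to be tested above. The log2 fold change in the authors' deposited table ranged from -3.92 for IKZF2 to 3.24 for IKZF4. The DESeq2 alternative, fitted here to the same counts, also gave -3.92 and 3.24 and matched the deposited value closely for every other factor. The deposited values are therefore not separate from that alternative.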

How the data were processed

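RNA of 4 Jurkat libraries was processed with HISAT2 2.2.0 and the build hg38, per the submitters' processing notes. How reads were counted, on which annotation and with what strand setting, is not given in the sources used here. Per the file headers and the values, the authors deposited raw counts per gene, a normalized signal (each library's counts over its size factor) and FPKM. The authors also deposited a log2 fold change with a p-value and an adjusted p-value, and their test is not given in the sources used here. All 26733 identifiers were found in GENCODE release 29, and 20 symbols turned into dates were restored from the identifier.

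Counts were filtered with filterByExpr (minimum count 10, minimum total 15), which left 15910 genes, scaled with TMM and tested with the quasi-likelihood test of edgeR 4.0.16 in R 4.3.3, with 2 residual degrees of freedom and Benjamini-Hochberg adjustment. An SE is the log2 fold change divided by the square root of F. Counts of 15463 genes were simulated for this comparison, with 200 genes changed and the same spread between libraries for every gene. Of the changes 97.0% of 4-fold and 27.0% of 2-fold ones were recovered, and 6 unchanged genes were called. In the data 71.6% of genes were called, so these shares do not measure the power of the test here. Library totals were 16041022 to 18938465 counts.

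The members and the 12 lists (149 entries, of which 16 are not analysed here) were chosen with earlier results of these data known. Named are all members, genes overlapping them, and from each list up to 4 genes with the smallest p, or for markers up to 3 with the highest mean, except 1 gene that is not reported here; CD33, ELANE, PAX5, VWF and the neighbouring genes were chosen after their values were seen. Alternatives were RLE, upper-quartile and library-size scaling, no filter, at least 10 CPM in 2 libraries, DESeq2 1.42.0, a replicate block, and leaving out every library in turn.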

Additional observations from a re-analysis of the deposited data

How the results depend on the processing

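IKZF1, IKZF2, IKZF3, BCL11A and ETS1 kept their direction and their call under each alternative that tested them. Requiring at least 10 CPM in 2 libraries left IKZF3, IKZF4 and ERG untested, so that 5 members were called, 0 of them higher, against 41.8% of the 9563 genes then tested called lower and 39.1% higher. Leaving out 1 library at a time gave 5 to 8 called members (5 to 7 lower, 0 to 1 higher) and 6070 to 12921 called genes in all (2062 to 6534 higher, 4008 to 6387 lower). In these fits the lone library of a group is assumed to vary like the other group. FLI1 reversed to 0.0759 with upper-quartile scaling and to 0.0480 with the 10 CPM filter, and IKZF5 to -0.33 with library size alone and to -0.11 with no filter. None of these 4 values passed the threshold, and the cause was not tested. Library size alone gave 4103 higher and 7164 lower genes, against 5467 and 5920 with TMM. With the replicate block 8 members and 9801 genes were called, and no call of a member changed. The labels give no pairing beyond the shared number, and the deviations of same-numbered libraries from their group means had a correlation of -0.00595 across genes. Depth limits ERG, with 2 and 5 treated counts. IKZF4 is limited by its controls, with 4 and 38 counts in untreated replicates 1 and 2, whose totals were 18938465 and 18441248 counts. The cause of that gap was not tested.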

Other observations

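The genomic setting of the factors was compared after the values above were known. Of the 10 genes 8 span more than 100 kb, a class that holds 18.0% of the tested protein-coding genes. In that class 47.1% of genes were called lower and 24.6% higher, with a median log2 fold change of -0.52, against 35.9% and 37.3% of genes under 10 kb, with a median of 0.11. IKZF4 and IKZF5, the members with the highest log2 fold changes, are the shorter ones, at 30.8 and 18.0 kb.

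The nearest tested protein-coding genes on both sides of each factor gave 20 pairs, in 2 of which ETS1 and FLI1 are each other's neighbour. Genes that were untested, not protein-coding or overlapping the factor were passed over. The gap therefore ranged from 0.162 kb to 2321 kb, and many of these genes are not adjacent. Of the other 18 neighbours 6 were higher, 9 lower and 3 not called, with a median of -0.41, against 34.4% higher and 37.2% lower over all genes tested. The largest changes among these neighbours were falls. C11orf45, 86.3 kb from FLI1, was at -6.16 ± 0.73, from a mean of 2.96 to 0.0362 CPM. FANCL, beside BCL11A, was at -2.69 ± 0.26, ST3GAL4, beside ETS1, at -2.64 ± 0.17 and SPAG16, beside IKZF2, at -2.45 ± 0.41. SUOX, the sulfite oxidase gene 1.02 kb from IKZF4, rose from a mean of 0.961 to 4.32 CPM (adjusted p = 0.0119, edgeR quasi-likelihood test). RPS26, a ribosomal protein gene 2.92 kb from IKZF4 on the other side, was at 0.35 ± 0.15 (adjusted p = 0.0854). ACADSB, an acyl-CoA dehydrogenase gene 0.162 kb from IKZF5, rose by 1.14 ± 0.15 on the log2 scale (adjusted p = 0.00218). ETS2, the ETS gene next to ERG, rose by 0.48 ± 0.11 (adjusted p = 0.0115).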
